A study of Zea mays with 4 samples.

Results

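In leaf 6 of maize, 12 loci were listed with FPKM values at least 4-fold higher in both low nitrogen libraries than in either high nitrogen library. For some of them the fragment numbers behind these values were too few to bear out a 4-fold difference, as given with each locus. They were chosen by their measured values: an annotated locus entered when its lower low nitrogen value was at least 10 FPKM and its higher high nitrogen value was at most 0.25 times that value. FPKM is the number of fragments divided by transcript length and by sequencing depth. Of 38973 annotated loci, 9173 had at least 10 FPKM in both low nitrogen libraries, and 12 met the whole rule, which is 0.0308% of the annotated loci and 0.131% of those 9173. The difference between treatments is therefore how these loci were found, and its size is given below as a description without a test.

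All plants were of the maize inbred line B73, whose genome is the maize reference. They were grown in nutrient solution with 0.04 mM nitrate (low nitrogen) or 4 mM nitrate (high nitrogen), both as the calcium salt. All plants had a common start on the higher supply. By the methods, the low nitrogen solution received calcium chloride to keep calcium equal, so nitrate was not the only salt that differed. RNA of leaf 6, by the methods from the mature part of a leaf still expanding, was sequenced in 2 libraries per treatment, 4 in all. How many plants went into a library is not given in the sources used here.

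Nitrogen-limited leaves are known to shift carbon towards compounds that hold no nitrogen, among them lignin, flavonoids and their sugar conjugates. Phenylalanine ammonia-lyase opens the phenylpropanoid pathway, which branches to lignin through hydroxycinnamoyl transferase (HCT) and to flavonoids through chalcone synthase. UDP-rhamnose synthase makes the activated sugar that is put into pectin of the cell wall and onto flavonoids.

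Depth here is the fragment number by which the FPKM values were scaled, read from their smallest steps. It was about 11900000 and 14220000 fragments in the low nitrogen libraries, against 8242000 and 9370000 in the high nitrogen libraries. The number of reads sequenced is another count, which the study reports itself. Summed over the table, the low nitrogen libraries held 1141130 and 1043300 FPKM, against 1798410 and 1764400 FPKM in the high nitrogen libraries. With these sums set equal, the median log2 difference of all tested loci was 0.60 in place of -0.01, and 141 loci met the rule, all 12 among them. The leaf label fits the photosynthesis genes: phosphoenolpyruvate carboxylase, the first carbon-fixing enzyme of C4 leaves, was at 4803 and 2630 FPKM in low nitrogen and 19557 and 13126 FPKM in high nitrogen. CesA12, a cellulose synthase of secondary cell walls and so a marker of vascular and other thick-walled cells, was at 3.66 and 3.95 FPKM in low nitrogen, against 0.724 and 2.51 FPKM in high nitrogen. CesA10 overlapped between the treatments (29.6 and 34.9 against 31.0 and 35.9 FPKM), and CesA11 was listed at 0 in all libraries. In leaf tissue, fewer cells of a type and less RNA per cell cannot be told apart, and the part of cell composition in the values below was not tested.

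As deposited, the values placed fewer loci strongly higher in low nitrogen than in high nitrogen, an order that turned round with equal FPKM sums. The same rule with high nitrogen as the higher treatment held for 151 annotated loci. With equal FPKM sums the numbers were 141 higher in low nitrogen and 82 higher in high nitrogen, and after quantile normalization 25 and 136. At a 2-fold separation of the deposited values the numbers were 241 loci higher in low nitrogen and 618 higher in high nitrogen. At 8-fold they were 4 and 70, and the 4 were loci with a listed value of 0 in each high nitrogen library. The mean low nitrogen level of the 12 loci had a median of 21.3 FPKM. For all 9173 loci that passed the same minimum of 10 FPKM the median was 27.9 FPKM, so the minimum itself brings these levels together. For short loci FPKM says little of abundance: the mean of 19.0 FPKM at GRMZM5G821482 stood for 1 fragment per low nitrogen library.

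**Figure D1:**
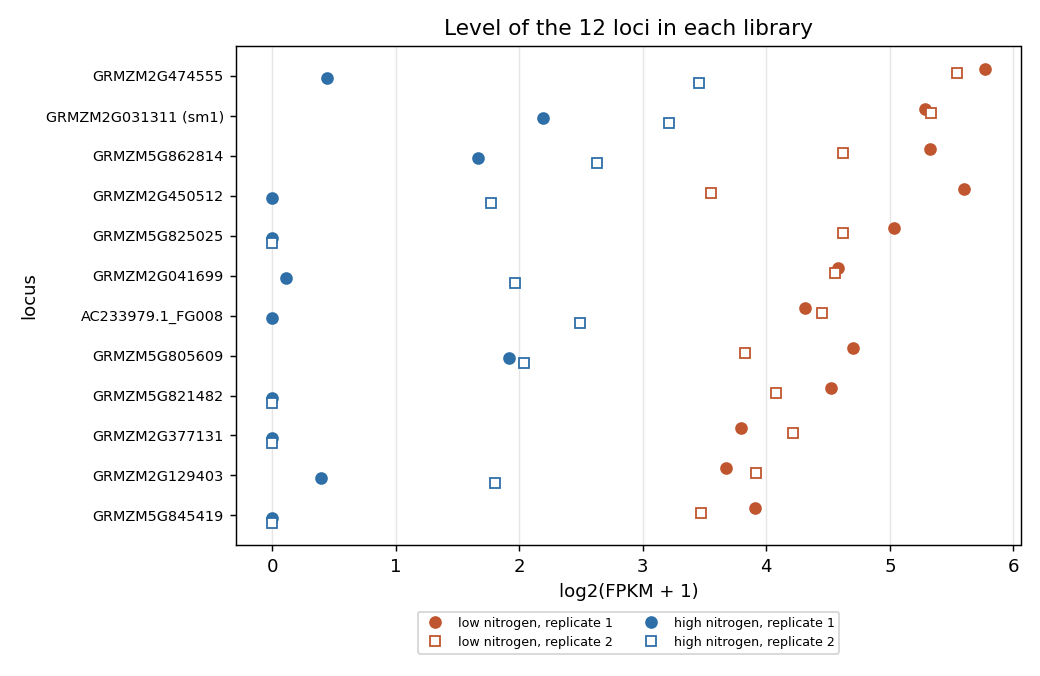
Level of the 12 loci in each library, as log2(FPKM + 1), ordered by mean low nitrogen level. Red symbols are the 2 low nitrogen libraries and blue symbols the 2 high nitrogen libraries (filled circle, replicate 1, open square, replicate 2). All red symbols lie right of all blue symbols of the same locus, as the rule requires, and 4 loci are at 0 in each high nitrogen library.

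The one locus with an established gene name was sm1 (GRMZM2G031311, chromosome 6, 133839846 to 133843446, B73 RefGen_v3). It encodes a UDP-rhamnose synthase and is the maize gene salmon silks1, known from silks, where it is needed to make the rhamnose-bearing flavone maysin. It had 38.0 and 39.3 FPKM in low nitrogen, against 3.58 and 8.26 FPKM in high nitrogen. The low nitrogen libraries were within 1.03-fold of each other, whereas the high nitrogen libraries differed 2.31-fold. The means were 38.7 ± 0.889 and 5.92 ± 3.31 FPKM (SD, n = 2 each), a ratio of 6.53. On the transcript span of 3601 bases these levels stood for at most 1499 and 1857 fragments in low nitrogen and at most 97.9 and 257 in high nitrogen.

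The study's MapMan annotation placed 3 further loci in the class of sm1, UDP-glucose 4,6-dehydratase, the first activity of UDP-rhamnose synthesis. The study gave classes only to genes it had picked as changed in these same libraries. Genes of this activity that did not change could not appear, so the shared direction below is not independent evidence. None of them met the rule, and all 3 lay between 2-fold and 4-fold separation. GRMZM2G549568 had 57.7 and 57.9 FPKM in low nitrogen, against 5.28 and 14.9 FPKM in high nitrogen. GRMZM2G166767 had 162 and 102 FPKM in low nitrogen, against 13.7 and 30.1 FPKM in high nitrogen. GRMZM5G878607, the most abundant, had 501 and 372 FPKM in low nitrogen, against 56.3 and 124 FPKM in high nitrogen. The ratios of the means, 5.71, 6.04 and 4.84, were close to the 6.53 of sm1. In all 4 loci high nitrogen replicate 2 was above replicate 1, by 2.20-fold to 2.83-fold. GRMZM5G878607 and GRMZM2G549568 have the same start and end in the table (chromosome 4, 241365727 to 241367439), and the counting may have divided reads between them. The partner of sm1 in maysin synthesis, sm2 (GRMZM2G180283), encodes the rhamnosyltransferase that uses UDP-rhamnose, and it too fell short of the rule. It had 329 and 354 FPKM in low nitrogen, against 64.0 and 146 FPKM in high nitrogen, a ratio of means of 3.25. Like sm1, it had close low nitrogen libraries and a higher value in high nitrogen replicate 2 than in replicate 1. That order of the high nitrogen libraries is not particular to these genes. It held at 230 of the 237 loci (97.0%) with unequal values and at least 2-fold separation.

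**Figure D2:**
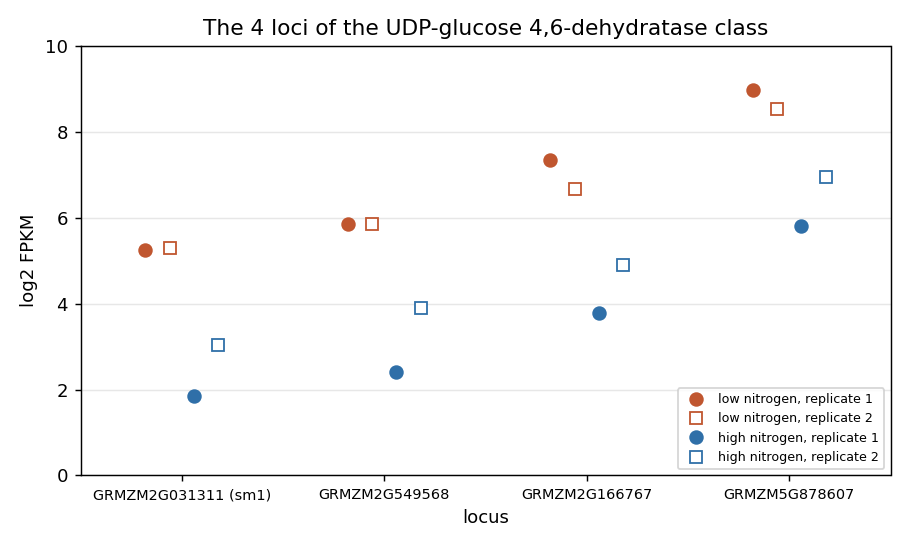
Level of the 4 loci of the UDP-glucose 4,6-dehydratase class, as log2 FPKM, with low nitrogen libraries in red left of high nitrogen libraries in blue. All 4 have both low nitrogen libraries above both high nitrogen libraries, and in each the open blue square (replicate 2) lies above the filled blue circle (replicate 1). The class holds only genes that the study had picked as changed in these libraries.

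The second locus with an annotated function was GRMZM2G129403 (chromosome 3, 86133001 to 86134431), which MapMan placed under lignin biosynthesis in the HCT class. HCT moves coumaroyl groups between coenzyme A and shikimate on the way to lignin monomers. The locus had 11.8 and 14.1 FPKM in low nitrogen, against 0.317 and 2.50 FPKM in high nitrogen. These values came out as 160 and 231 fragments in low nitrogen and as 3 and 27 fragments in high nitrogen. The ratio of the depth-scaled fragment numbers was 8.80 (95% interval 6.07 to 13.2, counting error only, without the difference between libraries). Its level was near the lower limit of the rule, and the 2 high nitrogen libraries differed 7.86-fold.

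Around these 2 loci, the loci of 3 pathway lists lay mostly higher in low nitrogen, but the study had chosen their genes as changed in these same libraries, so the counts are not independent evidence. Among 22889 tested loci, 11 (0.0481%) were called higher in low nitrogen and 112 (0.489%) lower by limma with Benjamini-Hochberg adjusted p under 0.05 and a log2 difference beyond 1. In limma, 4603 of the 22889 tested loci had an unadjusted p under 0.05 in either direction. Both low nitrogen libraries lay above both high nitrogen libraries at 26.6% of the tested loci and below them at 27.2%. The listed genes had been picked as changed, so a high count at unadjusted p was close to given. Of 15 loci of cell wall precursor synthesis, limma called 0 in either direction (15 had an unadjusted p under 0.05), 14 lay above and 1 below, and the median log2 difference was 1.74, beside -0.01 for all tested loci. Of 19 phenylpropanoid loci, limma called 0 higher and 1 lower (19 had an unadjusted p under 0.05), 17 lay above and 2 below, with a median of 1.80. Of 17 flavonoid loci, limma called 0 in either direction (17 had an unadjusted p under 0.05), 11 lay above and 6 below, with a median of 1.29. The flavonoid list thus had the largest share below, led by GRMZM2G114588 at 5.28 and 21.4 FPKM in low nitrogen, against 362 and 172 FPKM in high nitrogen. sm1 was the only member of the 12 in the first list, GRMZM2G129403 the only one in the second, and none was in the third. The numbers above and below were the same with equal FPKM sums and after quantile normalization.

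Genes of those lists fell short of the rule at high level. GRMZM2G170692, of the phenylalanine ammonia-lyase class, had 148 and 86.6 FPKM in low nitrogen, against 6.56 and 23.0 FPKM in high nitrogen. GRMZM2G151227, of the chalcone class, had 133 and 112 FPKM in low nitrogen, against 7.05 and 32.1 FPKM in high nitrogen. In both, high nitrogen replicate 1 alone would have met the ratio and replicate 2 did not. Lists by gene symbol matched too few loci to describe as groups: a1 (dihydroflavonol reductase) had 2.73 and 1.67 FPKM in low nitrogen, against 0.313 and 0.267 FPKM in high nitrogen, and ciszog1, a cis-zeatin O-glucosyltransferase, had 27.6 and 33.8 FPKM against 6.96 and 12.3 FPKM. Of the other glycosyltransferases, ugt708a6 had 4.11 and 4.26 FPKM in low nitrogen, against 1.64 and 2.30 FPKM in high nitrogen, and ciszog2 was under 1 FPKM in all libraries. The lignin methyltransferase ccoaomt2 had 54.0 and 65.7 FPKM in low nitrogen, against 31.4 and 44.5 FPKM in high nitrogen. The glutamate dehydrogenase gene gdh1 had 71.6 and 61.6 FPKM in low nitrogen, against 43.6 and 55.3 FPKM in high nitrogen, the narrowest separation of these.

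The remaining 10 loci carry no function in the annotation used here, and 5 of them have only a RefSeq number in place of a gene name. GRMZM2G041699 (LOC100282827, chromosome 4, 180401134 to 180403010) had 23.0 and 22.6 FPKM in low nitrogen, against 0.0829 and 2.91 FPKM in high nitrogen. Its low nitrogen libraries agreed within 1.02-fold, its ratio of means was 15.2, and its higher high nitrogen value was 0.129 times its lower low nitrogen value, the clearest separation among the 8 loci above 0 in a high nitrogen library. The 0.0829 FPKM of high nitrogen replicate 1 stood for at most 1.09 fragments and the value of replicate 2 for at most 43.6, so the high nitrogen libraries were far apart here as well.

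GRMZM2G474555 (LOC100275045, chromosome 5, 38035998 to 38036617) had the highest mean of the 12 in low nitrogen. It had 53.5 and 45.7 FPKM in low nitrogen, against 0.362 and 9.94 FPKM in high nitrogen. The means were 49.6 ± 5.55 and 5.15 ± 6.77 FPKM (SD, n = 2 each), and the SD in high nitrogen exceeded the mean. In fragments these were 211 and 223 in low nitrogen, against 1 and 32 in high nitrogen. The depth-scaled ratio of the pooled fragments was 8.92 (95% interval 6.26 to 13.1, counting error only). The gap between 1 and 32 fragments at similar depth is a difference between the high nitrogen libraries, which the interval leaves out.

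GRMZM5G805609 (LOC100283045, chromosome 8, 166330890 to 166332902) had the closest high nitrogen libraries of the 6 members above 0 in both. It had 25.1 and 13.2 FPKM in low nitrogen, against 2.78 and 3.11 FPKM in high nitrogen. The high nitrogen libraries were within 1.12-fold and the low nitrogen libraries differed 1.90-fold. Its ratio of means was 6.48, the smallest of the 8 loci for which a ratio can be formed.

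GRMZM2G450512 (LOC100275758, chromosome 10, 93390802 to 93391432) had the poorest agreement in low nitrogen. It had 47.6 and 10.7 FPKM in low nitrogen, against 0 and 2.41 FPKM in high nitrogen, that is 194 and 54 fragments against 0 and 8. The low nitrogen libraries differed 4.44-fold, as much as the rule asks between treatments. The depth-scaled ratio of the pooled fragments was 21.0 (95% interval 10.5 to 49.2, counting error only), and the interval leaves out that difference between libraries. The next locus on the chromosome, GRMZM2G061879, lies 18.6 kb away and is not one of the 12. It had 27.6 and 6.33 FPKM in low nitrogen, against 0.125 and 3.28 FPKM in high nitrogen. Both loci of this pair thus had low nitrogen replicate 1 above replicate 2 and high nitrogen replicate 2 above replicate 1.

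A pair of the 12 loci are neighbours. GRMZM5G845419 (chromosome 3, 127484839 to 127485171) and GRMZM5G862814 (chromosome 3, 127486437 to 127487386) are separated by 1265 bases. GRMZM5G845419 had 14.0 and 10.11 FPKM in low nitrogen, and its value in each high nitrogen library was 0. GRMZM5G862814 had 39.0 and 23.6 FPKM in low nitrogen, against 2.18 and 5.19 FPKM in high nitrogen. In FPKM both were higher in low nitrogen replicate 1 than in replicate 2, though for GRMZM5G845419 the fragment numbers were equal. The values of GRMZM5G845419 came out as 9 and 9 fragments in low nitrogen and 0 and 0 in high nitrogen, so with a floor of 3 fragments per high nitrogen library it was at least 2.06-fold higher in low nitrogen, which is less than the rule's 4-fold. GRMZM5G862814 shares its start and end with GRMZM2G097651, which was at 0 and 1.12 FPKM in low nitrogen and 1.03 and 0 FPKM in high nitrogen, and with both summed the ratio for the rule was 0.210. The table gives no strand or transcript structure, so whether the neighbours are pieces of a single transcript was not tested.

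This pair was the only genomic cluster. Within 50 kb, 200 kb and 1000 kb the number of the 12 loci near another of them was 2 each time. Chromosomes 3 and 10 held 3 of the loci each, chromosomes 1, 2, 4, 5, 6 and 8 held 1 each, and chromosomes 7 and 9 held none. With 12 loci these numbers describe where the loci lie and no more.

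Of the 12 loci, 4 were at a listed 0 in each high nitrogen library, and these were also the 4 that limma called higher. That call is printed beside its background of 0.0481% and nothing is read from it, since the rule used the same contrast, and all 11 loci called higher in the whole table had listed values of 0 in each high nitrogen library. The evidence behind the 4 differed widely. GRMZM5G821482 (chromosome 10, 78843425 to 78843656) had 22.1 and 15.9 FPKM in low nitrogen, which came out as 1 fragment in each library. On its span of 232 bases, 3 fragments would have been 112 and 82.2 FPKM in the high nitrogen libraries, more than the low nitrogen level, so no difference was detectable at this depth.

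GRMZM2G377131 (LOC100277055, chromosome 1, 275759684 to 275761759) had 12.8 and 17.6 FPKM in low nitrogen, with a listed 0 in each high nitrogen library. A second locus of the table carries the same name, start and end, and it had 34.5 and 53.6 FPKM in low nitrogen, against 40.6 and 50.8 FPKM in high nitrogen. Summed over both, the gene was at 47.4 and 71.2 FPKM in low nitrogen and at 40.6 and 50.8 FPKM in high nitrogen. The treatments then overlapped, and the ratio of the means was 1.30.

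GRMZM5G825025 (chromosome 2, 10997681 to 11003913) had 31.7 and 23.6 FPKM in low nitrogen, with a listed 0 in each high nitrogen library. GRMZM5G818347, with the same start and end, had 0 and 0 FPKM in low nitrogen, against 113 and 0 FPKM in high nitrogen. Another locus there, with both names, was between 1.80 and 2.68 FPKM in all libraries. The 3 loci summed to 34.4 and 25.4 FPKM in low nitrogen, against 115 and 1.92 FPKM in high nitrogen, so that the sum in high nitrogen rested on a single library and the ratio of the means was 0.510. At GRMZM2G377131 in both high nitrogen libraries and at GRMZM5G825025 in high nitrogen replicate 1, a listed 0 thus stood beside a high value of another locus of the same bounds, whereas in replicate 2 all 3 loci at GRMZM5G825025 were low.

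AC233979.1_FG008 (chromosome 10, 135159811 to 135160125) was the last of the 12 and another short locus. It had 18.9 and 20.8 FPKM in low nitrogen, against 0 and 4.63 FPKM in high nitrogen. These were 9 and 14 fragments in low nitrogen and 0 and 2 in high nitrogen. The depth-scaled ratio was 7.73, and its 95% interval of 1.91 to 67.6 (counting error only) reaches below the rule's 4-fold.

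**Figure D3:**
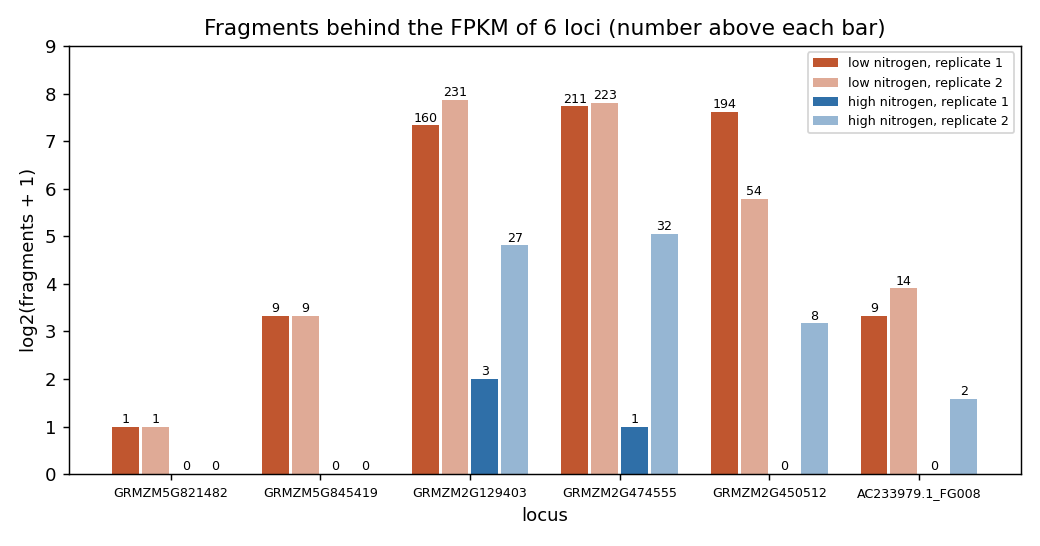
Fragments behind the FPKM of the 6 loci whose values were whole numbers of fragments in all 4 libraries, on a scale of log2(fragments + 1), with the number printed above each bar. Red bars are low nitrogen libraries and blue bars high nitrogen libraries. GRMZM5G821482 rests on 1 fragment per low nitrogen library, while GRMZM2G474555 rests on 211 and 223.

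Span, shared bounds and a RefSeq entry were no part of the rule, which asked only for an annotated locus at the set values. The median span was 1190.5 bases, beside 4296 bases for the 9173 loci with at least 10 FPKM in both low nitrogen libraries. Of the 12 loci, 3 (25%) spanned under 400 bases, beside 31 of 9173 (0.338%). Likewise 3 of 12 (25%) had the same start and end as another locus of the table, beside 1130 of 9173 (12.3%). A RefSeq entry, for most of them only a number in place of a gene name, was found for 6 of 12 (50%), beside 80.6%. These shares are a description, with no test, since the loci were chosen on their values. When loci of the same start and end were summed first, 10 loci met the rule.

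As a fold between the 2 libraries, replicates lay closer together in low nitrogen at most of the 6 loci above 0 in both high nitrogen libraries. By SD in FPKM, the low nitrogen libraries were the further apart at most of the 12. The higher low nitrogen library exceeded the lower by a median of 1.36-fold over the 12 loci, beside 1.24-fold over the 9173, and GRMZM2G450512 was the widest. In high nitrogen, 4 loci were at 0 in both libraries, and in the other 8 replicate 2 was the higher in 8 of 8. Over the 6 loci above 0 in both, the median ratio of replicate 2 to replicate 1 was 5.12. Of the loci at least 2-fold separated, 230 of 237 with unequal values (97.0%) likewise had replicate 2 above replicate 1, with a median ratio of 2.36. Over all 9173 loci the order held at 60.6% of those with unequal values, with a median ratio of 1.06. In the loci separated at least 2-fold in the opposite direction, replicate 2 was the lower in 382 of 618 (61.8%). High nitrogen replicate 2 therefore lay nearer to the low nitrogen libraries at most loci that separated the treatments, and it set the limit of the rule: with it left out 331 loci met the rule, and with replicate 1 left out 20 did. Leaving out low nitrogen replicate 1 gave 47 loci and leaving out low nitrogen replicate 2 gave 138. All 12 loci are among each of these, since leaving out a library only loosens the rule. No batch is named in the labels, and the cause of the difference between the high nitrogen libraries was not tested.

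**Figure D4:**
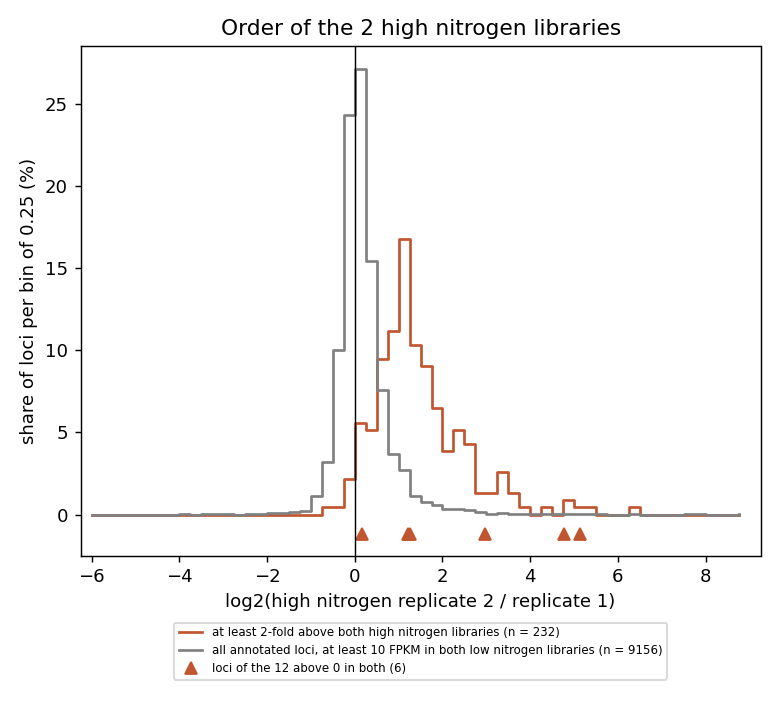
Distribution of log2 of high nitrogen replicate 2 over replicate 1, as the share of loci per bin of 0.25. The red line is the 232 loci at least 2-fold higher in low nitrogen and above 0 in both high nitrogen libraries, the grey line the 9156 such loci among all with at least 10 FPKM in both low nitrogen libraries, and the triangles 6 of the 12 loci. Most of the red line and all triangles lie right of 0, while the grey line is centred near 0.

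The size of the difference depended on how zeros were treated. Over the 8 loci above 0 in high nitrogen the ratio of means was between 6.48 and 24.2 with a median of 8.88. On the log2(FPKM + 1) scale the median difference over all 12 was 3.61, and with the 4 loci listed at 0 set to the level of 3 fragments at their span the median log2 ratio of the means was 3.15. The fitted difference of a short locus listed at 0 is no measure of its fold: GRMZM5G821482 was at 4.30 and GRMZM5G845419 at 3.69 on that scale, where 1 fragment was worth more than the pseudocount of 1 FPKM. Just inside the rule's ratio were AC233979.1_FG008 at 0.245 and GRMZM5G805609 at 0.237. Just outside were GRMZM2G141081 at 0.255, with 33.5 and 33.1 FPKM in low nitrogen, against 3.72 and 8.43 FPKM in high nitrogen, and AC225718.2_FG006 at 0.258, with 28.2 and 34.5 FPKM against 7.27 and 6.88 FPKM. Just inside the minimum were GRMZM5G845419 at 10.11 FPKM and GRMZM2G450512 at 10.7 FPKM in their lower low nitrogen library. Just outside the minimum were GRMZM2G301884 at 27.6 and 9.50 FPKM and GRMZM2G051491 at 24.8 and 8.49 FPKM in low nitrogen, both listed at 0 in high nitrogen. Loci on the 2 sides of the limits thus had like values.

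**Figure D5:**
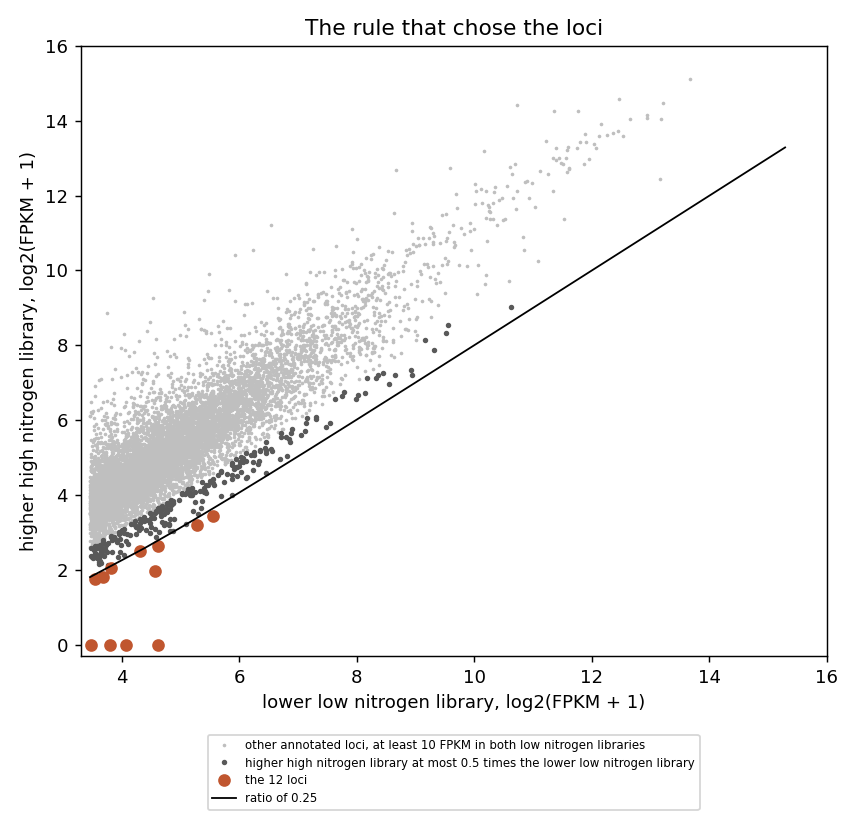
The rule, shown as the higher high nitrogen library against the lower low nitrogen library, both as log2(FPKM + 1), for the 9173 annotated loci with at least 10 FPKM in both low nitrogen libraries. Red points are the 12 loci below the line of ratio 0.25, dark points are loci with a ratio of at most 0.5, and grey points are the rest. The 8 red points above 0 lie close under the line, except GRMZM2G041699, and 4 lie at 0.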

How the data were processed

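Leaf 6 RNA of 2 low nitrogen and 2 high nitrogen libraries was sequenced by the authors, who aligned reads to B73 RefGen_v3 with TopHat2, built transcripts with StringTie and deposited FPKM per locus. The table has 44070 rows for 43110 loci, of which 4137 have no annotated gene. A locus with several names was counted once, and starts are written from 1. Members and lists were chosen with earlier results of these data known, and all 12 members are named. GRMZM2G114588, GRMZM2G061879, sm2 and the loci of the closing section were named after their values were seen.

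Differences were tested across all loci with limma 3.58.1 in R 4.3.3 on log2(FPKM + 1), with a trend, at loci that reached 1 FPKM in 2 or more libraries, with Benjamini-Hochberg adjustment over 22889 loci. This test does not weigh fragment numbers, so short loci with few fragments enter like well counted ones. A two-sided exact permutation test of 2 libraries against 2 cannot go below 0.333. The libraries are labelled replicates, and p-values measure only the spread between them.

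Because FPKM steps are multiples of the value of 1 fragment, depth and fragment numbers were read from loci whose transcript fills the span, within 0.02 fragments or 0.01% of the number, up to 500 fragments. Of 3225 loci spanning 560 to 1499 bases with at least 2 values above 0, 1987 (61.6%) came out whole in all 4 libraries, as did 6 of the 12. For the others, fragments at the span are upper limits. Ratios of fragment numbers have exact 95% intervals that cover counting error only. They pool the 2 libraries of a treatment, so the difference between libraries is not in them. Both procedures were tested on simulated data. Names come from RefSeq (assembly Zm-B73-REFERENCE-NAM-5.0, names only) and from the MapMan classes the study gave its changed genes. Other steps ran in Python 3.11.15 (pandas 2.3.3, numpy 2.4.6, scipy 1.17.1), with figures from matplotlib 3.10.9. Alternatives varied the rule, pseudocount, filter, scaling, trend, replicate block and libraries.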

Additional observations from a re-analysis of the deposited data

How the results depend on the processing

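The number of loci meeting the rule was 12. It was 5 at a ratio of 0.2, 241 at 0.5, 5 at a minimum of 20 FPKM, 141 with equal FPKM sums, 25 after quantile normalization and 23 with unannotated loci included, and leaving out a library gave 20 to 331. A minimum of 5 FPKM gave 17, and summing loci of the same bounds, an alternative chosen after seeing the data, gave 10. The median log2 difference of 3.61 became 4.90 with a pseudocount of 0.1 and 4.05 with equal FPKM sums, and was 2.47 to 4.15 with a library left out. Loci called by limma numbered 123, against 23 without the filter and 59 with equal sums, and 0 to 54 with a library left out (0 without low nitrogen replicate 2, with 1100 higher and 1687 lower at an unadjusted p under 0.05). Members called numbered 4, against 0 without the filter (12 at an unadjusted p under 0.05), and 0 to 6 with a library left out. The 12 members at an unadjusted p under 0.05 without the filter were close to given, since the rule used the same contrast. Nothing is read from that number. Without the filter, limma had 1244 of 31737 loci higher in low nitrogen and 1485 lower at an unadjusted p under 0.05. The 4 loci listed at 0 in high nitrogen are not tested when a low nitrogen library is left out, since they then pass 1 FPKM in 1 library. With the replicate block, 617 of 22889 loci were called. Of these, 143 were higher in low nitrogen, and 9 members were among the 143. Same-numbered libraries deviated with a correlation of 0.20, from 2 pairs that share only a number. Depth limits the short loci most, and 1 fragment at 232 bases was worth 22.1 and 15.9 FPKM in low nitrogen, against 37.2 and 27.4 FPKM in high nitrogen.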

Other observations

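Between 2-fold and 4-fold separation lay 229 further annotated loci, and several were far more abundant than the 12. FER1, a ferritin that stores iron, had 749 and 836 FPKM in low nitrogen, against 64.1 and 371 FPKM in high nitrogen. GRMZM2G093032, the most abundant, had 1571 and 1737 FPKM in low nitrogen, against 190 and 520 FPKM in high nitrogen. In 3 of the abundant loci high nitrogen replicate 1 was close to 0 and replicate 2 was not. GRMZM2G078465 had 492 and 730 FPKM in low nitrogen, against 1.78 and 147 FPKM in high nitrogen. GRMZM5G878346 had 662 and 484 FPKM in low nitrogen, against 0 and 161 FPKM in high nitrogen. GRMZM2G700208 had 737 and 401 FPKM in low nitrogen, against 4.92 and 146 FPKM in high nitrogen. A MapMan class was at hand for 55 of the 229 loci and for 320 annotated loci in all, each counted under its first class. The classes with 3 or more of the 55 were cell wall precursor synthesis (7, of 15 in all), flavonoids (7 of 16), phenylpropanoids (6 of 17), amino acid synthesis (4 of 27), fatty acid synthesis and elongation (4 of 11), amino acid degradation (3 of 7) and cellulose synthesis (3 of 16). These counts are a description, since the classed genes had been picked as changed in the same libraries.

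The rule was also met by 11 loci without an annotated gene, and 8 of them spanned under 300 bases. In 9 of them the value in each high nitrogen library was 0. Whole fragment numbers were found for 4, with 1 to 5 fragments per low nitrogen library. Novel_3197 (chromosome 7, 81049034 to 81049602) was the exception in level, with 384 and 62.8 FPKM in low nitrogen, against 2.53 and 1.60 FPKM in high nitrogen.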
